A study of Drosophila melanogaster with 2 samples.

Results

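The heat shock and chaperone genes described here are 9 genes chosen by name: Hsp83, Hsc70-4, Hsc70-3, Hsf, Hsp27, Hsp26, Hsp22, Hsp23 and Hsp68, of 13945 annotated protein-coding genes on the 6 main chromosome arms. Binding of CG7271, a Drosophila melanogaster protein known here by its annotation symbol, was mapped by chromatin immunoprecipitation and sequencing (ChIP-seq) in whole embryos collected 0 to 4 hours after egg laying. The transgenic line carried CG7271 fused to GFP at its C-terminal end, and the labels name no promoter for the transgene and no heat treatment. The 2 libraries, biological replicates 2 and 3, form 1 group, so no conditions could be compared and no test between groups was possible. Every peak was taken whose summit lay in a member gene or had a transcription start site (TSS) of one as its nearest protein-coding TSS. By this rule 16 of 30000 pooled peaks, 13 of 30000 replicate 2 peaks, 17 of 30000 replicate 3 peaks and 5 of 2445 peaks that passed the authors' irreproducible discovery rate (IDR) threshold belonged to the genes. IDR is meant to keep peaks that rank alike in both replicates. Here the list equals the 2445 highest pooled peaks by signal. A place in it thus does not show that a peak ranked alike in both. The embryos were whole, so cell types within them are not separated.

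Heat shock proteins keep other proteins folded. HSP90 and HSP70 proteins bind unfolded or immature proteins and release them in cycles driven by ATP, and small heat shock proteins hold unfolded proteins until HSP70 can act on them. On heating, the transcription factor encoded by Hsf forms trimers and binds heat shock elements, arrays of the unit nGAAn in alternating orientation, at the heat-inducible genes. In fruit flies several of these genes are also active without stress: Hsp83 and Hsc70-4 are made in most cells, Hsp83, Hsp26 and Hsp27 are transcribed in the nurse cells of the ovary, and Hsp83 messenger RNA supplied by the mother is a textbook case of an RNA cleared from the body of the embryo and kept in its pole plasm. Genes were grouped accordingly as made without stress (Hsp83, Hsc70-4, Hsc70-3 and Hsf), made on heating and in the ovary (Hsp27 and Hsp26), and made on heating (Hsp22, Hsp23 and Hsp68).

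The sequences below are those on which the account turns: the intron of Hsp83 under its second peak, the promoters of Hsp27 under a strong peak and Hsc70-4 under a moderate one, and the promoters of Hsp26 and Hsp68, which hold heat shock elements under lower peaks. They were read from the RefSeq copy of the dm6 assembly, 5′ to 3′ on the strand of the gene. The promoter lines give the 250 bases before the TSS. Capitals mark the TATA box letters and the 2-unit heat shock element, and a longer capital run is several elements that overlap, or a TATA box beside another.
Hsp83 intron, 101 bases centred on the pooled summit, chr3L:3194203-3194303, plus strand: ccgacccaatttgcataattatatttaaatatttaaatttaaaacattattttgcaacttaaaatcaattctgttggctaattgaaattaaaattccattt
Hsc70-4 promoter, chr3R:15242437-15242686, plus strand: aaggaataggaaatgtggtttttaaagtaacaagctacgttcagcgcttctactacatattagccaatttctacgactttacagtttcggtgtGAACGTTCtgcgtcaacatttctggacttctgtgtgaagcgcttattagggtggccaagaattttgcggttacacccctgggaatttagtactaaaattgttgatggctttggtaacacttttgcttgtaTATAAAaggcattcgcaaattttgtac
Hsp27 promoter, chr3L:9383813-9384062, plus strand: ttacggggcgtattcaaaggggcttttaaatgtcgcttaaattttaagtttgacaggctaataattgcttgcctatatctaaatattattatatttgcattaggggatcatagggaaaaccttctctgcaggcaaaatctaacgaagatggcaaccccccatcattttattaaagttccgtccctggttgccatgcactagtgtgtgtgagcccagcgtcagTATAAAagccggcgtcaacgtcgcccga
Hsp26 promoter, chr3L:9377428-9377677, minus strand: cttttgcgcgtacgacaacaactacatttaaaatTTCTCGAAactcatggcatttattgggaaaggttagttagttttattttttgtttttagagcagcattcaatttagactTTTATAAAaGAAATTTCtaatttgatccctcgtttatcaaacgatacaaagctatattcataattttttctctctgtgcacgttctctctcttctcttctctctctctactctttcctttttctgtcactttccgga
Hsp68 promoter, chr3R:24057311-24057560, minus strand: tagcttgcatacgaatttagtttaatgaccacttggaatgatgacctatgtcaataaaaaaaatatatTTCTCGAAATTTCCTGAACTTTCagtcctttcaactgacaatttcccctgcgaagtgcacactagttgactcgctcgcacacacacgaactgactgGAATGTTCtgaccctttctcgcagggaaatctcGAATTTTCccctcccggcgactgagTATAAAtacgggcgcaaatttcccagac
At Hsp83 the stretch with its single match to the 2-unit letters, from -79 to -50 of the downstream TSS, is shown alone. Further GAA letters lie before the match and further TTC letters after it, and the exact 2-unit search does not count them.
Hsp83 element, chr3L:3193137-3193166, plus strand: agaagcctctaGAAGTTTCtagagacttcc

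CG7271 peaks at these genes were uneven. Hsp83 and Hsp27 carried promoter peaks ranked 305 or better of 30000 in every full list, Hsc70-4 and Hsp22 carried peaks of moderate height, and the promoters of Hsf, Hsp26, Hsp68, Hsc70-3 and Hsp23 carried lower pooled peaks, at most 1.68 times the list median, or none. Replicate 3 placed Hsp26 and Hsc70-3 higher, at 2.05 and 1.93 times its median. A promoter peak is one with its summit within 500 bp of an annotated TSS. In the IDR list 4 of the 9 genes had one, where 12.0% of protein-coding genes did. In the pooled list 8 of the 9 did, against 54.2% of protein-coding genes. In replicate 2 there were 8 and in replicate 3 there were 9, and the share of all protein-coding genes was 53.3% in each. In both replicate lists 8 had one, against 43.6% of protein-coding genes. Among genes with a promoter peak, the median rank of the highest one in the pooled list was 3388 for the 8 members and 6275 for all 7555 genes, where rank 1 is the peak of highest signal. In replicate 2 these medians were 4027 for the 8 members and 6486 for all 7436 genes, and in replicate 3 they were 3426 for the 9 members and 6400 for all 7427. These counts and medians describe 9 genes chosen by name, with earlier results of these data known, and carry no test.

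**Figure D1:**
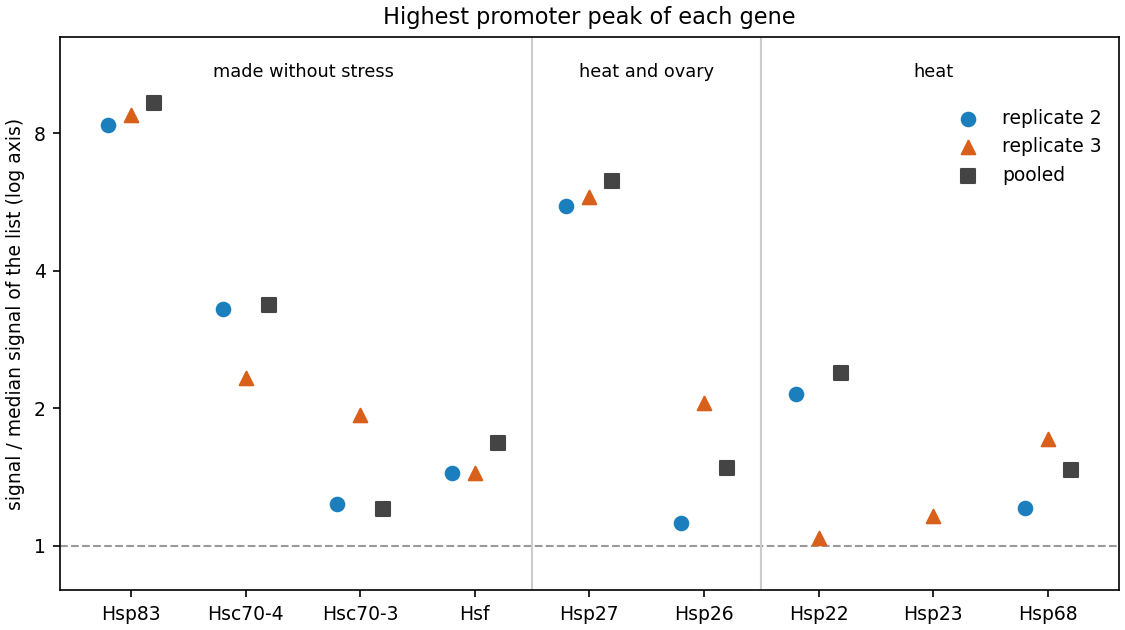
Signal of the highest promoter peak of each gene, divided by the median signal of its list (log axis), in replicate 2 (circles), replicate 3 (triangles) and the pooled list (squares), with genes grouped by when they are made; the dashed line is the list median. Hsp83 lies between 8.35 and 9.31 and Hsp27 between 5.53 and 6.29, above the other genes, and Hsp23 has a point in replicate 3 only.

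Since the scale of the authors' signal value was not stated, each one is given as a multiple of the median of its own list. Pooled −log10 q values reach no higher than 3.70, and the highest promoter peaks of Hsp83, Hsp27, Hsc70-4 and Hsp22 all sit at that limit. Among the weaker genes the pooled value was 2.21 for Hsf, 1.62 for Hsp26, 1.59 for Hsp68 and 1.00 for Hsc70-3. In replicate 3, whose values reach no higher than 3.85, the promoter peaks of Hsp26 and Hsc70-3 also sat at the limit.

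Hsp83 encodes the cytosolic HSP90, which matures kinases and steroid receptors and is abundant without stress. The gene (FBgn0001233; dm6, 3L, 3192969 to 3197059, plus strand) had the highest promoter peak of the 9 genes in every list. Its signal was 8.35-fold the list median for replicate 2, 8.78-fold for replicate 3 and 9.31-fold for both pooled. The ranks were 66 in replicate 2, 101 in replicate 3 and 82 in the pooled list. The replicates placed the summit 24 bp apart, at -104 and -80 from the TSS, and the pooled summit lay at -105. Among the genes with a promoter peak, 0.979% had a higher one in the pooled list. Hsp83 has 2 annotated TSSs 247 bp apart, and the summit lies between them, upstream of the downstream start and inside the first exon of the transcript from the upstream one, at +142 from that start. The pooled peak was 310 bp wide.

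A second Hsp83 peak, also in the IDR list, lay in the first intron. Its pooled summit was at +1037 from the downstream TSS and 246 bp before the second exon, in an intron of 1131 bp. Its signal was 6.26-fold the list median for replicate 2, 6.21-fold for replicate 3 and 6.77-fold for both pooled. The ranks were 172, 255 and 207 in those lists. The replicate summits lay 41 bp apart. This was the only IDR peak assigned to the 9 genes that was not at a promoter, and it was narrow, at 171 bp. The 2 pooled Hsp83 summits were 1142 bp apart and their limits did not touch. The bases around them differed in composition: GC was 20.8% in the 101 bases of the intronic window printed above and 47.5% in the 101 bases around the promoter summit. IDR summits had a mean of 34.9% ± 10.7 (SD, n = 2445 windows of the same length).

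**Figure D2:**
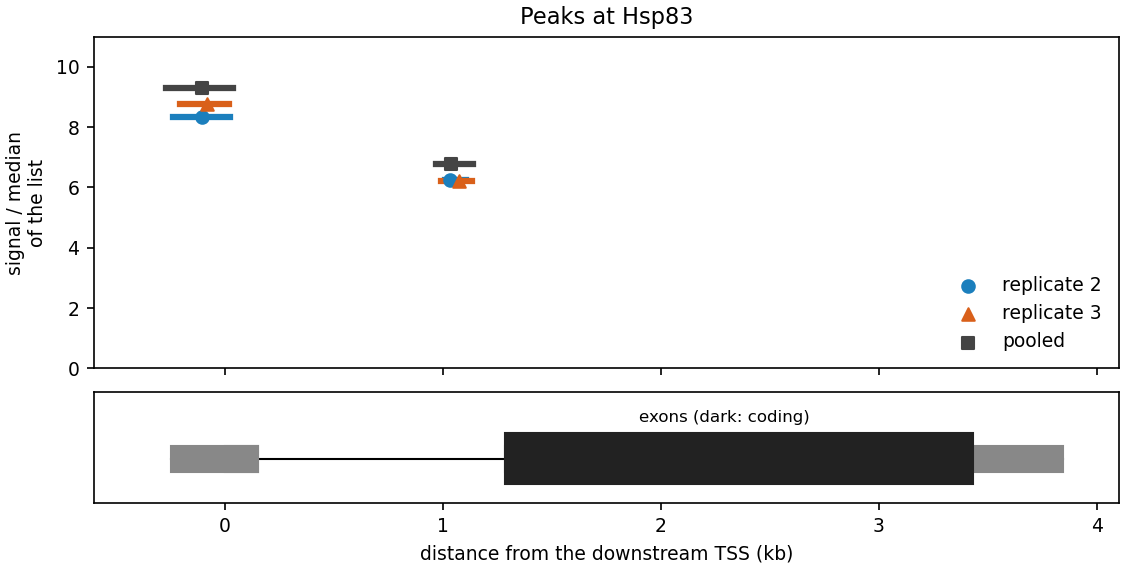
Peaks at Hsp83 against distance from its downstream TSS (kb): bars span each peak, symbols mark summits, and height is signal divided by the list median; the gene model is drawn below (grey, untranslated exon; black, coding exon; line, intron). Both replicates and the pooled list have 1 peak between the annotated starts and 1 in the intron, and none over the coding exon.

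Hsc70-4 encodes the constitutive cytosolic HSP70, which among other things strips clathrin from vesicles. The gene (FBgn0266599; dm6, 3R, 15242687 to 15246614, plus strand) has 6 annotated TSSs and had 1 peak in each list, upstream of the first. Its signal was 3.30-fold the list median for replicate 2, 2.33-fold for replicate 3 and 3.37-fold for both pooled. It ranked 761 in replicate 2, 2281 in replicate 3 and 992 in the pooled list. The summits were less close than at Hsp83, at -167 in replicate 2 and -23 in replicate 3, a distance of 144 bp, and the pooled summit was at -153. This promoter is shared with tefu, the ATM kinase gene, which runs the other way, and the pooled summit lay at -298 from the tefu TSS. The peak cannot be given to either gene by position alone.

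Hsc70-3 encodes the HSP70 of the endoplasmic reticulum, known in mammals as BiP. The gene (FBgn0001218; dm6, X, 11801696 to 11807117, minus strand) had 6 peaks in the pooled list and 7 in replicate 3, the most of the 9 genes there, with 2 in replicate 2 and none in the IDR list. Only 2 of the 6 pooled peaks and 1 of the 7 in replicate 3 were at a promoter, and some of the rest lay beyond the end of the gene. All 6 pooled peaks had a signal of 0.743 to 1.20 times the median. Its highest promoter peak was 1.23 times the median in replicate 2, at -485 from the most upstream TSS, and 1.93 times in replicate 3, at -54 from another TSS. The ranks were 8698 in replicate 2, 3426 in replicate 3 and 9715 in the pooled list, and the replicate summits lay 1195 bp apart. The replicates thus placed the highest promoter peak at different starts of the gene.

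Hsp68 encodes a heat-inducible member of the HSP70 family. The gene (FBgn0001230; dm6, 3R, 24055080 to 24057310, minus strand) had 1 peak in each of the full lists and none in the IDR list. The signal was 1.21-fold the list median for replicate 2, 1.71-fold for replicate 3 and 1.46-fold for both pooled, and the ranks were 9073, 4438 and 6318. The summit was placed alike, at -67 in replicate 2 and at -82 in replicate 3, and at -47 in the pooled list.

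The small heat shock genes Hsp22, Hsp26, Hsp23 and Hsp27 lie in the cluster at cytological position 67B, which here spans 14184 bp of 3L (9371511 to 9385694) and holds 8 protein-coding genes. Over the cluster the pooled list had 6 peaks, replicate 2 had 5, replicate 3 had 6 and the IDR list had 2. Both IDR peaks belonged to members, Hsp27 and Hsp22, near opposite ends of the cluster. No list had a peak assigned to Hsp67Ba, and the peaks assigned to CG4461 and Hsp67Bc in the same cluster were at or below 0.992 times the median. A replicate 3 peak at +38 of Hsp22, at 1.04 times the median, also lay within 500 bp of the Hsp67Bc start.

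**Figure D3:**
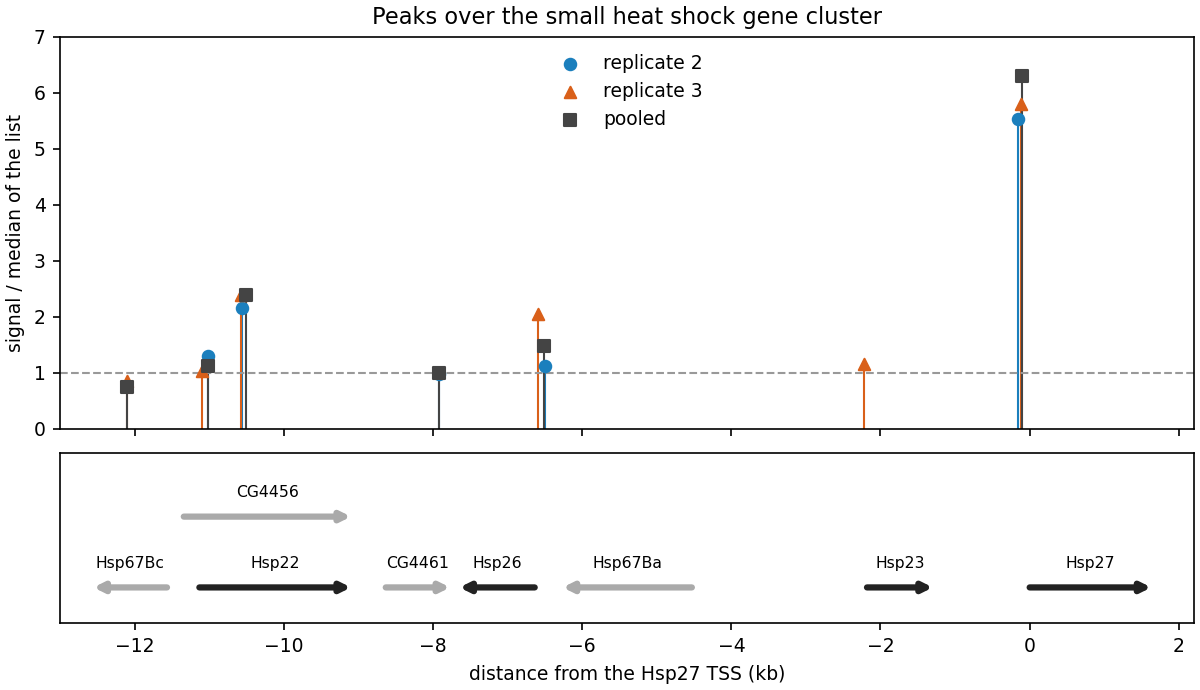
Peak summits over the 67B cluster against distance from the Hsp27 TSS (kb), with height as signal divided by the list median in replicate 2 (circles), replicate 3 (triangles) and the pooled list (squares); arrows below are genes in their direction of transcription, black for the genes described here and grey for their neighbours. The highest points, 5.53 to 6.29, are at Hsp27, and the next, 2.15 to 2.39, are at Hsp22.

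Hsp27, whose protein is nuclear, had the second highest promoter peak of the 9 genes in every list. At the gene (FBgn0001226; dm6, 3L, 9384063 to 9385694, plus strand) the signal was 5.53-fold the list median for replicate 2, 5.80-fold for replicate 3 and 6.29-fold for both pooled. The peak ranked 231 in replicate 2, 305 in replicate 3 and 248 in the pooled list. All summits were upstream of the only annotated TSS, at -158 in replicate 2, -121 in replicate 3 and -107 in the pooled list. The pooled peak was 137 bp wide, beside 310 bp at the Hsp83 promoter. The order was the same in replicate 2, at 95 and 264 bp, and reversed in replicate 3, at 376 and 228 bp. No TSS of another protein-coding gene lay within 500 bp of the summit. One further, weak replicate 2 peak 6952 bp downstream of the TSS, at 0.850 times the median, had Hsp27 as its nearest gene.

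Hsp26, a cytosolic small heat shock protein gene (FBgn0001225; dm6, 3L, 9376418 to 9377427, minus strand), shares the group made on heating and in the ovary with Hsp27, and its peak was weaker than that of Hsp27. The signal was 1.12-fold the list median for replicate 2, 2.05-fold for replicate 3 and 1.48-fold for both pooled. The ranks were 11047 in replicate 2, 2964 in replicate 3 and 6169 in the pooled list. The summit was at -134 in replicate 2, -48 in replicate 3 and -121 in the pooled list. The gene had no IDR peak, and its signal was below that of Hsp27 in both replicates.

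Hsp22, whose protein works in the mitochondrial matrix, carried 2 peaks in each full list. The gene (FBgn0001223; dm6, 3L, 9372931 to 9374964, plus strand) has 2 annotated TSSs and lies within the span of CG4456, whose older symbol is Hsp67Bb. The stronger peak had its pooled summit at -437 from the downstream TSS, inside a 5′ untranslated exon of the longer transcript, and at +629 from the upstream TSS. Its signal was 2.15-fold the list median for replicate 2, 2.38-fold for replicate 3 and 2.39-fold for both pooled, and it ranked 2171, 2164 and 2141 there. The replicate summits were 15 bp apart but fell on either side of the 500 bp limit, at -492 in replicate 2 and at -507 in replicate 3. For replicate 3 the highest promoter peak by the rule was therefore the weaker one near the upstream TSS, at +38, with a rank of 13711 and 1.04 times the median. In the pooled list that weaker peak lay at +111, within 500 bp of the CG4456 start as well, and had 1.13 times the median.

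Hsp23, another cytosolic small heat shock protein gene (FBgn0001224; dm6, 3L, 9381882 to 9382765, plus strand), had no peak in replicate 2, in the pooled list or in the IDR list. Replicate 3 had 1 peak at -35 from the TSS, which ranked 10610 at 1.16 times the median. It was the only member with no pooled peak, although it lies next to Hsp27.

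Hsf encodes the heat shock factor, present without stress and activated by it. The gene (FBgn0001222; dm6, 2R, 18130303 to 18134634, minus strand) was the only one of the 9 with all its summits downstream of the TSS. They were at +48 and +285 in replicate 2, at +341 in replicate 3, and at +95 and +296 in the pooled list. The highest had 1.44-fold the list median for replicate 2, 1.44-fold for replicate 3 and 1.68-fold for both pooled, with ranks of 5883, 6451 and 4635. The pooled summit at +296 was in an intron and that at +95 in the 5′ untranslated exon.

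Read by group, 2 of 4 genes made without stress, 1 of 2 made on heating and in the ovary and 1 of 3 made on heating had an IDR promoter peak. In both replicate lists the counts were 4 of 4, 2 of 2 and 2 of 3. Each group held a gene with a strong or moderate peak and at least 1 with a weak one, and the groups are too few genes, 4 of them in 1 cluster, for a comparison.

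Summits at the promoters were more often upstream than downstream of the nearest TSS of their gene, as over all protein-coding genes. Of the peaks within 500 bp of such a TSS, 7 of 11 in the pooled list were upstream, beside 60.3% over all genes. In replicate 2 it was 7 of 10, beside 58.3%, in replicate 3 it was 7 of 9, beside 59.8%, and in the IDR list 4 of 4, beside 77.9%. The count depends on the TSS used: from the most upstream TSS of each gene, 2 of the 4 IDR summits and 5 of the 11 pooled summits were upstream, beside 58.3% and 44.3% over all genes. Summits within 100 bp of each other in both replicates were found at the promoters of 6 members, Hsp83, Hsp27, Hsp22, Hsp26, Hsp68 and Hsf, where the stronger Hsp22 pair is counted although its replicate 3 summit fell at -507. By the same rule 32.9% of protein-coding genes had such a pair. Most peaks have the summit at their exact centre, 98.8% of pooled peaks, and a fixed width. The fragments are recorded as 200 to 800 bp, and replicate summits lay 144 bp apart at Hsc70-4 and 86 bp apart at Hsp26. A position is therefore known far less finely than to the base.

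**Figure D4:**
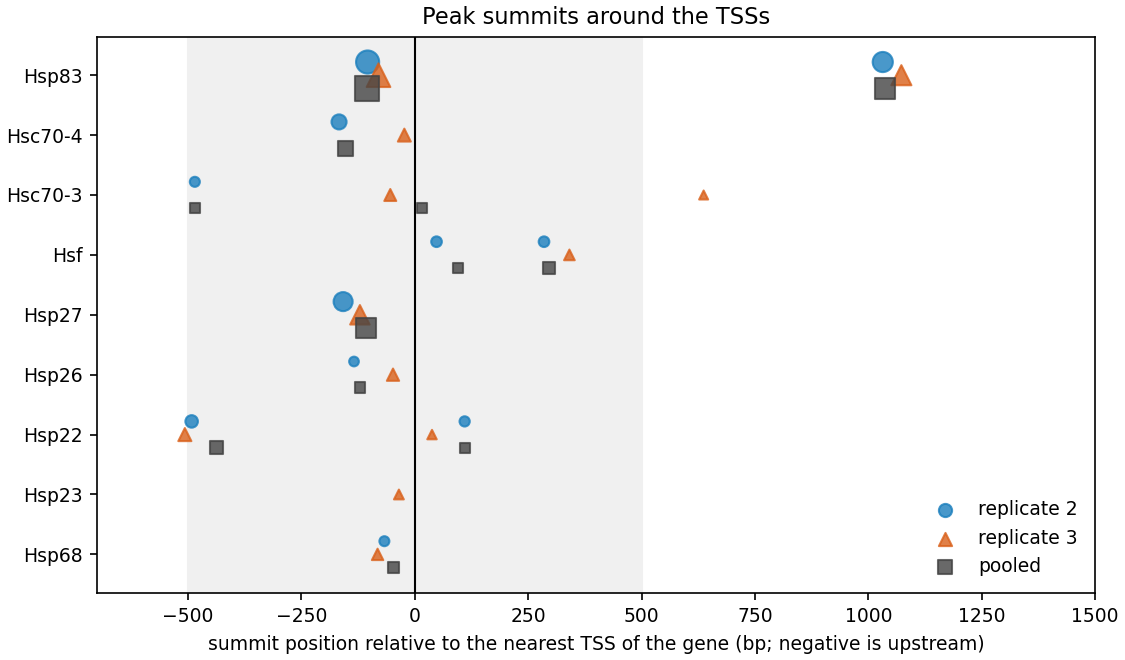
Positions of peak summits relative to the nearest TSS of each gene (bp; negative is upstream) in replicate 2 (circles), replicate 3 (triangles) and the pooled list (squares); symbol area rises with signal over the list median and the grey band is the 500 bp promoter window. The large symbols of Hsp83 and Hsp27 lie upstream of the TSS, the Hsp83 intron peak lies past +1000, and the Hsf summits lie downstream.

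The motif letters in the promoters did not follow the peak heights. The 2-unit heat shock element was sought as GAANNTTC or TTCNNGAA, each its own reverse complement, in the 300 bases from 250 before to 50 after the TSS, for the 8 genes other than Hsf. For a gene with several TSSs, the one nearest its highest pooled promoter summit was used, while the shares over all genes use the most upstream TSS. It occurred 6 times at Hsp68, 3 times at Hsp26, 2 times each at Hsp22 and Hsp23, once each at Hsp83 and Hsc70-4, and at neither Hsp27 nor Hsc70-3. Of all protein-coding promoters of this length, 15.9% held it. Overlapping matches were counted, and at Hsp68 they chain into 3 overlapping arrays of 3 units, which 0.430% of promoters held. Hsp68, with the most matches, had a weak peak, and Hsp27, with no match in this window, had a strong one. A motif match is a run of letters and not evidence of bound factor, and known heat shock elements of Hsp27 farther upstream or with other letters are outside this search. The number of matches also does not give the length of an array. At Hsp83 further GAA and TTC letters flank the single match and are not counted.

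Of the 16 pooled summits 10 were searched within 50 bp, without the 2 of Hsf and the 4 of Hsc70-3 that lie away from its promoters. The windows of 4 of these 10 held the 2-unit element, those of Hsp83 at -105, Hsc70-4 at -153, Hsp26 at -121 and Hsp68 at -47. The share was 5.69% at IDR summits and 4.94% at the other pooled summits. The genes were chosen as heat shock and chaperone genes, and 6 of the 8 promoters held the element. Whether it is more common under the peaks than elsewhere in these promoters was not tested. The element at Hsc70-4 lay from -157 to -150, under the pooled summit at -153, and that at Hsp26 from -128 to -121. Replicate 2 placed the Hsc70-4 and Hsp26 summits at -167 and -134. Replicate 3 placed them at -23 and -48, more than 50 bp from these elements. At Hsp83 the element lay from -68 to -61, beside the pooled summit. The windows of the Hsp27 summit and of the peaks at +1037 of Hsp83 and -437 of Hsp22 held none.

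The TATA box letters TATAAA, on either strand, occurred in the 300 bases of 7 of the 8 promoters, all but Hsc70-3, and in 45.8% of all promoters. In Hsp83, Hsc70-4, Hsp27, Hsp22, Hsp23 and Hsp68 a match began between -30 and -27. At Hsp26 a match from +24 to +29 of the TSS used lies from -28 to -23 of its other annotated TSS. The GAGA factor letters GAGAG occurred at Hsp26, Hsp22 and Hsp23, and in 29.7% of all promoters. DRE (TATCGATA) and M1BP (GGTCACAC) letters, seen at many promoters of constantly active genes, occurred in none of the 8, and in 9.36% and 7.70% of all promoters. The Zelda letters CAGGTAG, bound by the activator of the early embryonic genome, occurred at Hsc70-3 only, and in 1.64% of all promoters.

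**Figure D5:**
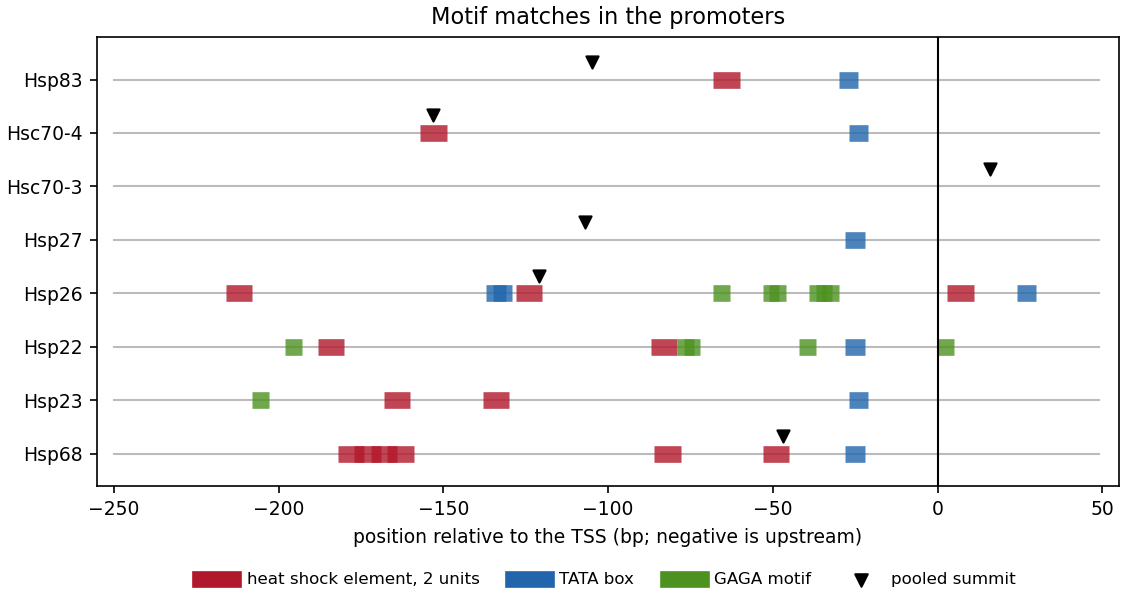
Motif matches in the 300-base promoters of 8 genes against position from the TSS (bp; negative is upstream): red, 2-unit heat shock element; blue, TATA box; green, GAGA motif; triangles, the highest pooled promoter summit where it lies inside the window. Hsp68 has the most matches to the heat shock element, Hsp27 has none, and Hsc70-3 has no match of these 3 motifs.

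Other chaperone genes gave a wider frame. Of 38 genes of the HSP70, HSP90, HSP60, small heat shock, co-chaperone and chaperonin families, with 1 non-coding RNA, 3 of 37 protein-coding ones had an IDR promoter peak, beside the 12.0% of all protein-coding genes. The counts were 20 of 37 in the pooled list, beside 54.2%, and 19 of 37 in both replicate lists, beside 43.6%. The 3 were mrj, a DnaJ co-chaperone of HSP70 (rank 537 in the pooled list, 4.43 times the median), Cdc37, which brings kinases to HSP90 (rank 1121, 3.17 times), and CCT8, a subunit of the cytosolic chaperonin (rank 2393, 2.28 times). The Cdc37 summit is shared with alpha-Spec and dlt, and the CCT8 summit with CG30349. While mrj and Cdc37 had a promoter peak in each replicate, CCT8 had none in replicate 2 and ranked 2402 in replicate 3. The heat-inducible non-coding RNA gene lncRNA:Hsromega had an IDR peak at rank 1299, 2.98 times the median, at +201. These are also the 4 highest pooled promoter peaks of the 38 genes, and none reached the height at Hsp83 or Hsp27.

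No list had a promoter peak at any of the 6 Hsp70 genes, Hsp70Aa, Hsp70Ab, Hsp70Ba, Hsp70Bb, Hsp70Bbb and Hsp70Bc, the main heat-inducible HSP70 genes. These genes are near-identical copies, and the handling of reads that map to several places is not given in the sources used here, so a missing peak there is uncertain. Of the 10 HSP70 family genes in this list, Hsc70-5 and Hsp110 had a pooled promoter peak, at ranks 4910 and 7016.

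The genes whose promoter peaks ranked most like those of the members with an IDR peak were found by Euclidean distance in log2 rank over replicate 2, replicate 3 and the pooled list, among 5925 genes with a promoter peak in all 3 lists. The nearest to Hsp83 were brwl, at a distance of 0.276, and ASPP, at 0.283. The nearest to Hsp27 were Ldh, the lactate dehydrogenase gene, at 0.115, and fok, at 0.118. The nearest to Hsc70-4 were slow, at 0.129, and CG13101, at 0.161, and to Hsp22 they were Reph, at 0.525, and tsg, at 0.555. For Hsp22 the replicate 3 rank in this distance is that of the weaker peak at +38, since the stronger one fell at -507, so its neighbours are matched on a mix of both peaks. These distances describe ranks in lists that share libraries.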

How the data were processed

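The deposited data are 4 peak lists on dm6. Per the deposited notes, the authors called peaks on each replicate against a control alignment and on both replicates together, and thresholded by IDR. For the aligner, the peak caller and the IDR cutoff, names and settings were not given in the sources used. The description names an anti-GFP antibody, while the antibody label names CG7271. Each deposited peak has a signal value, on an unstated scale, and a −log10 q value. The IDR list equals the 2445 highest pooled peaks by signal, as checked on the files, so IDR and pooled values of a peak are the same measurement. Read depth is unknown from these lists, so no counting interval is given. A control library was not analysed here.

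TSSs came from Ensembl release 115 and sequence from the RefSeq copy of dm6, read with Python 3.11.15 and pandas 2.3.3. Coordinates are 1-based. Peaks were ranked by signal within a list. The counting steps were tested on simulated data. No statistical test was run, since there is 1 group. The members, gene lists and motifs were chosen with earlier results of these data known. The genes named are all 9 members, the other chaperone genes with an IDR promoter peak and the 4 with the highest pooled promoter peak, genes that share a member's promoter summit, and the 2 genes nearest in rank to each member with an IDR promoter peak. The 6 Hsp70 genes, Hsc70-5, Hsp110, CG4461, Hsp67Bc and Hsp67Ba were named after their values were seen. Alternatives covered the TSS window, the TSS used, stricter lists, the summit distance and each replicate alone.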

Additional observations from a re-analysis of the deposited data

How the results depend on the processing

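The count of genes with a promoter peak in both replicate lists moved most. It was 8 over the full lists, beside 43.6% of protein-coding genes, and 3 over as many highest peaks of each as the IDR list holds. With each replicate alone in place of both, at the same list sizes, the IDR count ranged from 3 to 4 and the pooled count from 8 to 9, and 3 and 9 came without replicate 2. The IDR count was 3 with a 200 bp window, with the most upstream TSS only and among the 1222 highest IDR peaks, and 4 with a 1000 bp window. From the most upstream TSS the Hsp83 summit lay at +142 in place of -105 and the Hsp22 summit at +629 in place of -437, so both turned from upstream to downstream. Members with summits matched between replicates numbered 6 at 100 bp, 4 at 50 bp and 7 at 200 bp. Shares of all protein-coding genes are not given for the changed windows, list lengths, TSSs or summit distances. A changed count there is therefore not a result about the members. Without replicate 2, the rank of the highest promoter peak was 2281 for Hsc70-4, 3426 for Hsc70-3 and 13711 for Hsp22, and the other Hsp22 peak then lay 507 bp from the TSS. No paired analysis was possible because there is 1 group. Unknown depth limits what a missing peak means.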

Other observations

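The longest run of letters shared by any 2 of the 8 member promoters, on either strand, was 15 bases, at Hsp83 and Hsc70-3, which encode the cytosolic HSP90 and the HSP70 of the endoplasmic reticulum. Among the 28 pairs the next longest run was 12 bases and the median 9 bases. The run occurs 2 times on the 6 arms, both of them here, from -128 to -114 at Hsp83 and from -108 to -94 at Hsc70-3, in the same orientation. It is in capitals in the 30 bases shown for each gene, and this search was added after the data were seen.
Hsp83, chr3L:3193086-3193115, plus strand: caCAACACTGATCTACCctagtattcacag
Hsc70-3, chrX:11806434-11806463, minus strand: tcCAACACTGATCTACCactgacgtgtctt
The pooled Hsp83 summit at -105 lies 9 bases past the run. At Hsc70-3 the promoter summits nearest to it were at -54 in replicate 3 and +16 in the pooled list, where the signal was 1.93 and 1.20 times the list median. The pooled signal at Hsp83 was 9.31 times the median. The replicate 3 peak at Hsc70-3 ranked 3426, with its −log10 q at the limit of that list, 3.85. The same letters lay within the Hsp83 promoter peak and within the lower replicate 3 and pooled peaks at Hsc70-3. Replicate 2 had no peak over them at Hsc70-3, and the pooled peak there had a −log10 q of 1.00.

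The 10 words of 6 bases most over-represented at IDR summits against other pooled summits, of those in at least 2% of IDR windows, were also sought after the data were seen. Mean GC was 34.9% in IDR windows and 40.2% in the others, and its part in these shares was not tested. The first of them, ACCGGA, was in 4.83% of IDR windows and 2.32% of other pooled windows, and in none of the 10 member windows. TATTAA was in 19.9% of IDR windows and 11.4% of others, and in 2 of the 10 member windows, Hsp27 at -107 and Hsp22 at -437. ATATTA was in 20% of IDR windows and 11.8% of others, and also in 2, Hsc70-4 at -153 and Hsp22 at -437. The 10 member windows mix the 5 IDR summits with summits of the pooled list only, so neither share alone is their match. Each member window with TATTAA or ATATTA is an IDR summit. These counts are too small to be read as a result about the members. TTATAA and ATTATA were in 1 member window each, and the remaining words in none.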
